A study of Homo sapiens with 24 samples.

Results

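The 50 genes described here carry out or time the copying of DNA in S phase: the subunits that license and unwind origins, the polymerases and their clamp, the nucleotide enzymes, and the cyclins, E2F factors and chromatin proteins that go with them. They were taken by name. For each, the probe set with the highest mean log2 value over all arrays was used, among probe sets that the array's gene table assigns to 1 symbol. All 50 passed the filter on dim probe sets, out of 18055 genes tested.

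The series profiled inhibitors of the DNA methyltransferase DNMT1 in HCT116, a human colorectal cancer cell line, on Affymetrix HG-U133 Plus 2.0 arrays, which measure each transcript with probe sets near its 3' end. All cells came from 1 line, were grown in RPMI1640 with serum and were exposed for 72 h, and each compound was dissolved in DMSO. The treated groups had 2 arrays each: DAC (decitabine) at 5 µM and 120 nM, G669071 at a higher and a lower dose, G668684 at 7 µM and 150 nM, Aza (azacitidine) at 1500 nM and 150 nM, and G669043 at 1500 nM and 150 nM. The reference was 4 arrays of cells given DMSO alone. For G669071 the titles give 63 µM and 6 µM but the source names give 120 nM and 6 nM, so its doses are called higher and lower. The titles add the word phos to G669071, ester to G668684 and the prefix Aza to G669043, and nothing more about these compounds was used. Nothing in the labels ties replicates to separate cultures, so p-values reflect only the spread among these arrays, and that spread may be technical.

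Before a cell copies its DNA, origins are licensed: ORC and CDC6 with CDT1 load the ring of MCM proteins, and geminin (GMNN) blocks CDT1 so that origins do not fire again. CDC45 and the GINS complex turn the ring into an active helicase, primase and DNA polymerase alpha lay down primers, and the RFC complex loads the PCNA clamp that keeps polymerases delta and epsilon on the template. Many of these genes are transcribed at the G1/S border by E2F factors, and DAC and Aza are nucleoside analogs that are incorporated into nucleic acid, DAC into DNA and Aza into RNA and DNA.

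Because these genes moved together, their promoters are shown first. RefSeq windows (build GRCh38.p14) were 300 bases long, from 250 before to 50 after the transcription start, and 51 windows matched 42 of the 50 genes. No window was used for MCM4, MCM5, GINS4, POLD3, RPA2, RPA3, CCNE2 and E2F8. The E2F word GCGGGAA, its first variant GCGCGAA or its second variant GCGCCAA, searched on both strands, was found in 36 of the 51 windows (70.6%), against 13.8% of 22199 windows of protein-coding genes and 11.03% of all 35116. CCAAT was found in 31 (60.8%), against 34.6% of all windows, and can overlap GCGCCAA where a T follows. The word TTTGAA, part of a cell cycle element of later genes, was found in 1 (1.96%), against 15.2% of all windows. A match describes the letters only. The windows of 5 genes follow. PRIM1, CDT1 and POLA1 were chosen as members that fell at both doses of DAC, G669071 and G668684. PCNA was chosen as a member with no adjusted p under 0.05 against DMSO in the main fit, and CCNE1 as the member highest after Aza. They lie at chr12:56752274-56752573 (minus strand), chr16:88803539-88803838 (plus), chrX:24693668-24693967 (plus), chr20:5126573-5126872 (minus) and chr19:29811741-29812040 (plus), in this order, and are printed 5' to 3' on the gene's strand. Capitals mark the E2F words, in either orientation.
PRIM1: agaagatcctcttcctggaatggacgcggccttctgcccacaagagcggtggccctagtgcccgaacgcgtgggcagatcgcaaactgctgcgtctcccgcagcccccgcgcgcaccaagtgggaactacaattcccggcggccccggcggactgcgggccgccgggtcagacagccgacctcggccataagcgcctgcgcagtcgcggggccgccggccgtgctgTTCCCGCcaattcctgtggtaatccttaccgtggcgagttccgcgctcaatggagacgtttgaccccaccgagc
CDT1: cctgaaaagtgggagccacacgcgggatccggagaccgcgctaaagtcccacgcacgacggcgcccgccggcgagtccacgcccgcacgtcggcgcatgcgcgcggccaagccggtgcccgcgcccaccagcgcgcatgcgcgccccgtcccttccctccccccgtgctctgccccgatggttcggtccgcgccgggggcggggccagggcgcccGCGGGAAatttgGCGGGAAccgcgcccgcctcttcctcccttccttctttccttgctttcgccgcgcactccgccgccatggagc
POLA1: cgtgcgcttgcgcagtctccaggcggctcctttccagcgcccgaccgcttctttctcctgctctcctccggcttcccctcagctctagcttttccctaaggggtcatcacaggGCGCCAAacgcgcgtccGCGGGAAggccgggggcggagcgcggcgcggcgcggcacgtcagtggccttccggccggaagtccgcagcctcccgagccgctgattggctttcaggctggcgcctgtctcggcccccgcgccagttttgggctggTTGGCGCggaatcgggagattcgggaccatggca
PCNA: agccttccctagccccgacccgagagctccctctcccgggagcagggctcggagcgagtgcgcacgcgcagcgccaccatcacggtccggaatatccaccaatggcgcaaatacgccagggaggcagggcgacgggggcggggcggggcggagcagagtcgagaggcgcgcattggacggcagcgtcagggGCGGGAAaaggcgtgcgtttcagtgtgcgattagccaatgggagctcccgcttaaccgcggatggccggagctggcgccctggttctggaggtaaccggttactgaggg
CCNE1: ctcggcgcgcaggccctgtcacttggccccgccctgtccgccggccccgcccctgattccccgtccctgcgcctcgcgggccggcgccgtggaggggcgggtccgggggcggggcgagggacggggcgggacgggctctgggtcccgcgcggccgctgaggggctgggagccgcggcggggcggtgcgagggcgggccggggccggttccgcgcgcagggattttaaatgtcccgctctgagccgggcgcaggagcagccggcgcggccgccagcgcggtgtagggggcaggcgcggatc
PRIM1 held 1 E2F word, CDT1 held 2, POLA1 held 3, PCNA held 1 and CCNE1 held 0. The word in the PCNA window, GCGGGAA, is also in the windows of PRIM1, CDT1 and POLA1. The genes with a window but no E2F word were CCNE1, CDC45, FEN1, MCM10, ORC6, POLD1 and SLBP. At DAC 5 µM MCM10 fell most among them, by 1.14 on the log2 scale. The others fell less than the median of the 50 genes, with log2 fold changes from -0.17 (CCNE1) to -0.56 (FEN1). Whether the word goes with the size of the decrease was not tested.

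All values below are log2 of the deposited intensities, levels are compared only within a gene, and called means a limma p under 0.05 after Benjamini-Hochberg adjustment over all 18055 genes. Array medians lay between 6.46 and 6.58. The DMSO arrays fell into 2 pairs, replicates 1 and 2 and replicates 3 and 4, with correlations over genes of 0.997 within a pair and 0.990 to 0.991 across. The 50 genes had a median 0.10 higher in replicates 3 and 4 than in 1 and 2 (all genes, -0.03). By pair means 31 of the 50 were higher in replicates 3 and 4, against 44.37% of all genes. For 26 of the 50 both of replicates 3 and 4 lay above both of 1 and 2, a count not made over all genes. Beta-actin 3' minus 5' signal, a measure of RNA integrity, was 0.24 and 0.15 in the second pair, and -0.03 and 0.00 in the first. The highest value of all arrays was 0.34, in G669043 1500 nM replicate 2. Where a named gene's call is lost or its direction turns against 1 of the pairs, this is given beside it. Genes named for the largest changes against DMSO were taken only if both treated arrays lay beyond every DMSO array. For them that trait is fixed by the choice and adds no support. Counts under alternative settings, and counts at an unadjusted p, are of the 50 genes alone, with no share of all genes beside them. Of the 12 epithelial and colon markers, EPCAM (12.31 to 13.26 over all arrays), KRT8, KRT18 (13.59 to 14.25), KRT19, CDH1, CLDN4 and CLDN7 lay above the array medians of tested genes, 7.59 to 7.67. The colon markers VIL1, CDX1, CDX2, LGALS4 and CEACAM5 lay lower, between 6.52 and 7.63, and the fibroblast marker COL1A1 lay at 9.75 to 10.21. The blood markers HBB (8.67 to 8.95), CD3E (7.85 to 8.27) and CD79A (7.89 to 8.44) also lay above those array medians. So did the endothelial marker PECAM1 (7.86 to 8.29). The other measured fibroblast, blood and endothelial markers did not lie above them on every array. Summed intensities of the fibroblast, blood and endothelial lists lay at 1458 to 1841 (6 of 8 passed the filter), 1045 to 1319 (6 of 8) and 608 to 758 (5 of 5) over all groups, with COL3A1, LUM and PTPRC under the filter. The summed epithelial list (12 of 12 passed) was 36090.5 to 41989 over the treated groups, against 32945 to 34964 in DMSO, and its part in the results was not tested.

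DAC at 5 µM lowered almost the whole machinery. Of the 50 genes 49 fell and 0 rose, where 14.2% of all genes tested fell and 18% rose. The median log2 fold change was -0.77, against -0.04 over all genes. Among the 50, 12 were lower by at least 1 log2 (2-fold), a size reached downward by 0.609% of all genes. In bulk RNA, fewer cells in S phase and less RNA per cell cannot be told apart.

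**Figure D1:**
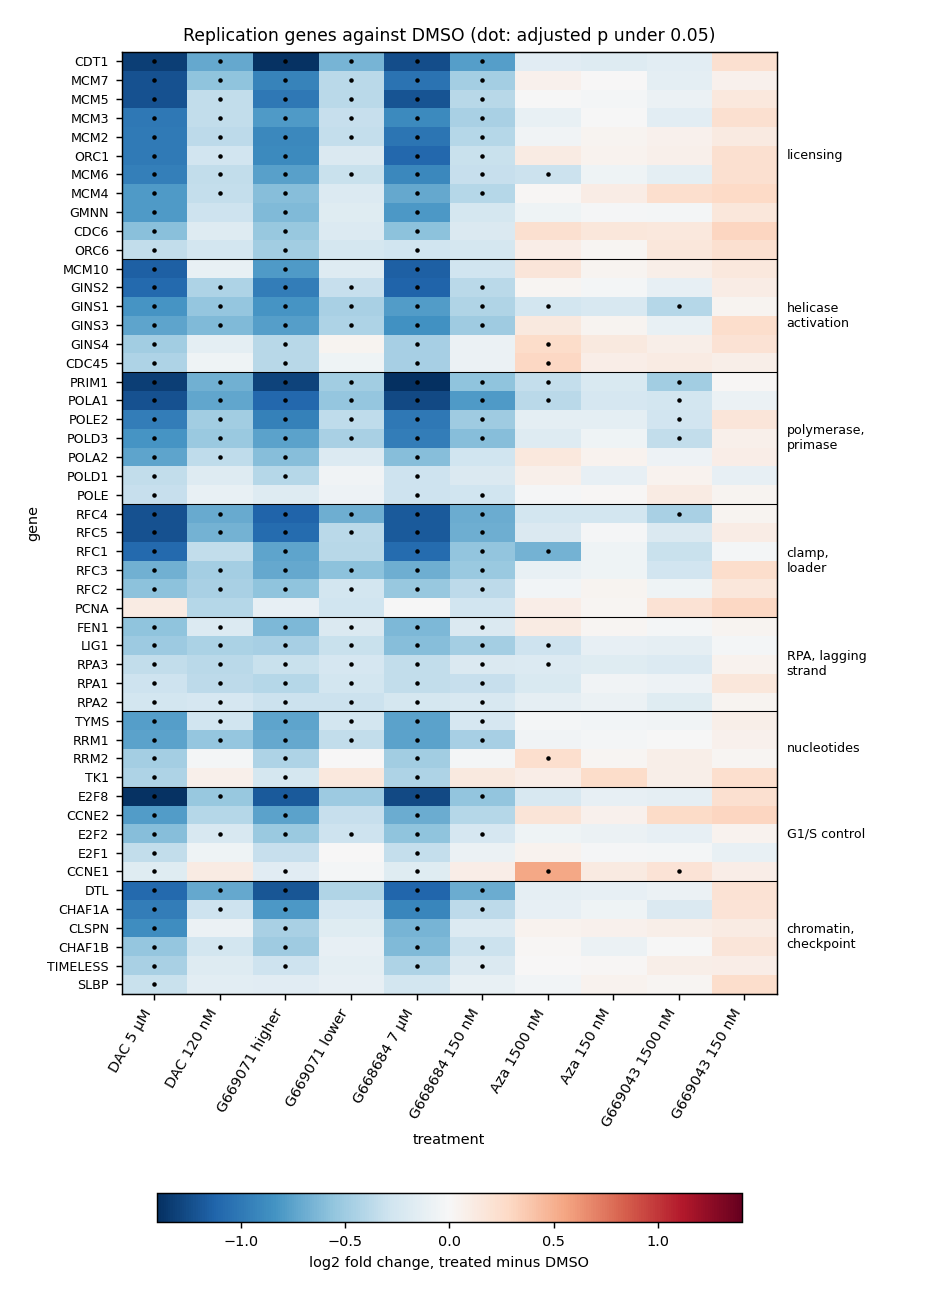
Log2 fold changes against DMSO of the 50 genes (vertical axis, grouped by role) in the 10 treated groups (horizontal axis). Colour gives the log2 fold change and a dot marks an adjusted p under 0.05. The columns of DAC, G669071 and G668684 are blue with 49, 46 and 48 dots at the higher dose, while the Aza and G669043 columns have 11 dots or fewer.

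The largest decreases at 5 µM spanned several steps. E2F8, a repressor of E2F targets that is itself an E2F target, had levels of 7.89 and 8.0 at DAC 5 µM, against 8.98, 8.98, 9.76 and 9.62 in DMSO. CDT1, the licensing factor, had 9.61 and 9.61, against 10.72, 10.86, 11.14 and 11.02 in DMSO. PRIM1, the catalytic subunit of primase, had 10.21 and 10.21, against 11.43, 11.54, 11.54 and 11.62 in DMSO. In each case both DAC arrays lay below every DMSO array by more than the spread among the DMSO arrays. The decreases were 2.62-fold for E2F8 (log2 -1.39 ± 0.18 SE, adjusted p = 4.2e-06), 2.51-fold for CDT1 (-1.33 ± 0.10, adjusted p = 3.3e-09) and 2.50-fold for PRIM1 (-1.32 ± 0.06, adjusted p = 3.0e-12). DMSO replicates 3 and 4 lay well above 1 and 2 for E2F8, and PRIM1 was the most even of the 3 genes over the DMSO arrays.

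**Figure D2:**
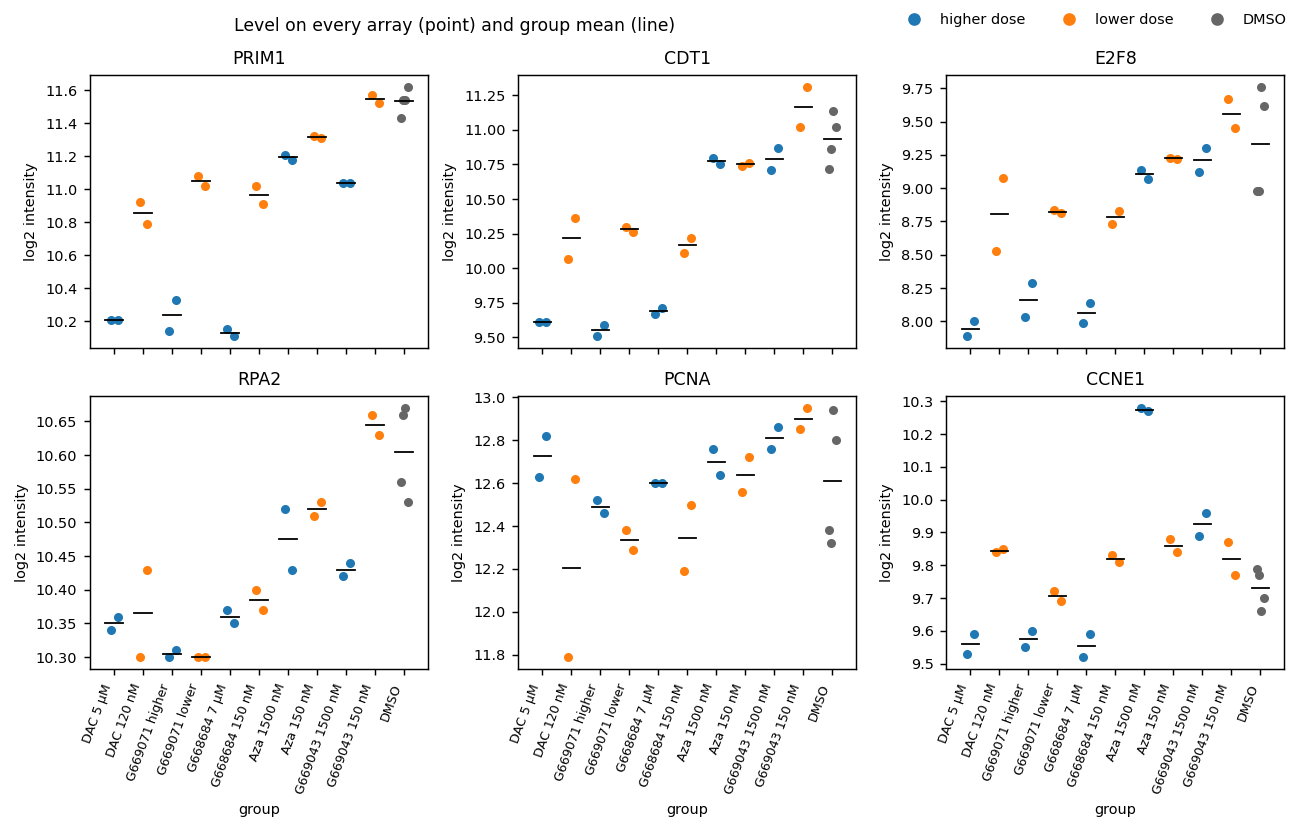
Log2 level of 6 genes (vertical axes, each on its own scale) on each array (points, with lines for group means), by treatment (horizontal axis), with the higher dose left of the lower and DMSO at the right. PRIM1, CDT1 and E2F8 lie below all DMSO arrays at the higher doses of DAC, G669071 and G668684, RPA2 lies close below DMSO at both doses, PCNA overlaps DMSO and CCNE1 stands out at Aza 1500 nM.

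All 11 licensing genes fell at DAC 5 µM, with a median of -0.99. MCM5, a subunit of the helicase ring, had 9.31 and 9.29 after DAC 5 µM, against 10.55, 10.64, 10.48 and 10.40 in DMSO (log2 fold change -1.22, adjusted p = 6.0e-11). MCM7, another ring subunit, had 9.94 and 9.96, against 11.20, 11.26, 11.10 and 11.12 in DMSO (-1.22, adjusted p = 1.3e-12). ORC1, the largest origin recognition subunit, had 7.48 and 7.52, against 8.50, 8.55, 8.49 and 8.43 in DMSO (-0.99). For these genes the DMSO arrays lay close together and both DAC arrays far below them. MCM2, MCM3, MCM4, MCM6, CDC6, ORC6 and GMNN also fell, by 0.35 (ORC6) to 1.0 (MCM3) on the log2 scale.

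The genes that activate the helicase fell in 6 of 6 cases (median -0.79). MCM10, which joins the helicase as it starts to unwind, had 8.81 and 8.95 after DAC 5 µM, against 9.88, 9.83, 10.21 and 10.17 in DMSO (-1.14 ± 0.12 SE, adjusted p = 2.2e-07). The GINS subunits GINS1, GINS2 and GINS3 were lower by 0.83, 1.09 and 0.74, and GINS4 and CDC45 by 0.49 and 0.43. All 7 polymerase and primase genes fell (median -0.83). POLA1, the catalytic subunit of polymerase alpha, had 8.30 and 8.42, against 9.45, 9.46, 9.70 and 9.70 in DMSO (-1.22, adjusted p = 4.3e-10). The catalytic subunits of polymerases delta and epsilon, POLD1 and POLE, fell less, by 0.34 and 0.32, than POLD3 (0.83) and POLE2 (0.97), accessory subunits of the same enzymes. Whether members differed from each other in their change was not tested.

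All 5 RFC genes, subunits of the clamp loader, fell at DAC 5 µM, and the clamp gene PCNA was not called. RFC4 had 10.05 and 10.06, against 11.15, 11.07, 11.41 and 11.47 in DMSO (-1.22, adjusted p = 1.2e-09), and RFC5 had 10.49 and 10.47, against 11.55, 11.68, 11.83 and 11.73 in DMSO (-1.22, adjusted p = 9.9e-11). PCNA had 12.63 and 12.82, against 12.38, 12.32, 12.94 and 12.80 in DMSO. Its DAC arrays lay inside the DMSO range, and the difference of 0.12 ± 0.17 (95% interval -0.25 to 0.48, adjusted p = 0.66) was not called. PCNA turned to -0.15 against DMSO replicates 3 and 4 alone, which had the higher PCNA levels. Both DAC arrays lay above DMSO replicates 1 and 2. With replicate number in the model the PCNA difference was 0.375 and was called higher (limma adjusted p = 0.0495). Of the 30 genes with more than 1 kept probe set, 28 went the same way on all of them at DAC 5 µM. The exceptions were both in the loader: other probe sets of RFC5 reached 0.39 and of RFC3 0.01. Agreement was also 28 of 30 at the higher doses of G669071 and G668684. At lower doses it was 24 with DAC, 25 with G669071 and 22 with G668684. With Aza it was 16 at 1500 nM and 13 at 150 nM, and with G669043 it was 17 at each dose.

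The single-strand binding complex and the enzymes of the lagging strand had smaller decreases. RPA1, RPA2 and RPA3, the subunits of RPA that coat unwound DNA, were lower by 0.29, 0.26 and 0.34 at DAC 5 µM, and FEN1 and LIG1, which trim and seal Okazaki fragments, by 0.56 and 0.51. RPA2 showed how even the values were: 10.34 and 10.36 after DAC 5 µM, against 10.56, 10.66, 10.67 and 10.53 in DMSO. Both DAC arrays lay below all DMSO arrays. Nucleotide supply genes fell in 4 of 4 cases: TYMS (thymidylate synthase) by 0.78, RRM1 and RRM2 (ribonucleotide reductase subunits) by 0.75 and 0.48, and TK1 (thymidine kinase) by 0.43. RRM2 had 12.92 and 12.88, against 13.42, 13.43, 13.33 and 13.33 in DMSO.

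All 5 G1/S control genes fell at DAC 5 µM, with E2F8 at the top and the cyclin gene CCNE1 at the bottom. CCNE1 had 9.53 and 9.59, against 9.79, 9.77, 9.66 and 9.70 in DMSO (-0.17 ± 0.06, adjusted p = 0.028). CCNE2, E2F1 and E2F2 were lower by 0.78, 0.35 and 0.60. In the chromatin, checkpoint and histone group, 6 of 6 fell. DTL, the substrate receptor of the ubiquitin ligase that destroys CDT1 on replicating chromatin, had 8.91 and 9.05, against 9.75, 9.89, 10.26 and 10.40 in DMSO. CHAF1A and CHAF1B, which place histones behind the fork, fell by 0.97 and 0.55, the checkpoint mediators CLSPN and TIMELESS by 0.87 and 0.45, and SLBP, which binds histone mRNA, by 0.31.

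At 120 nM DAC the same machinery was lowered in part. Of the 50 genes 32 fell and 0 rose (9.9% and 12.5% of all genes), with a median of -0.35 against -0.00 over all genes. POLA1 had 8.89 and 8.80 (-0.73), CDT1 had 10.07 and 10.36 (-0.72), DTL had 9.12 and 9.59 (-0.72), RFC4 had 10.49 and 10.64 (-0.71) and PRIM1 had 10.92 and 10.79 (-0.68). All of these arrays lay below the DMSO values given above, and between them and the arrays of DAC 5 µM. The 2 arrays of DAC 120 nM differed widely for some genes: PCNA had 11.79 and 12.62, CCNE2 8.92 and 9.68, SLBP 11.19 and 11.78, and E2F8 8.53 and 9.08. Without replicate 1, the lower of these, 22 genes fell, the median was -0.28 and DTL lost its call (adjusted p = 0.056). PCNA's difference of -0.41 was not called (adjusted p = 0.11). The arrays of TK1 (11.39 and 11.38), RRM2 (13.34 and 13.35) and MCM10 (9.86 and 9.98) lay within the DMSO range at 120 nM.

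**Figure D3:**
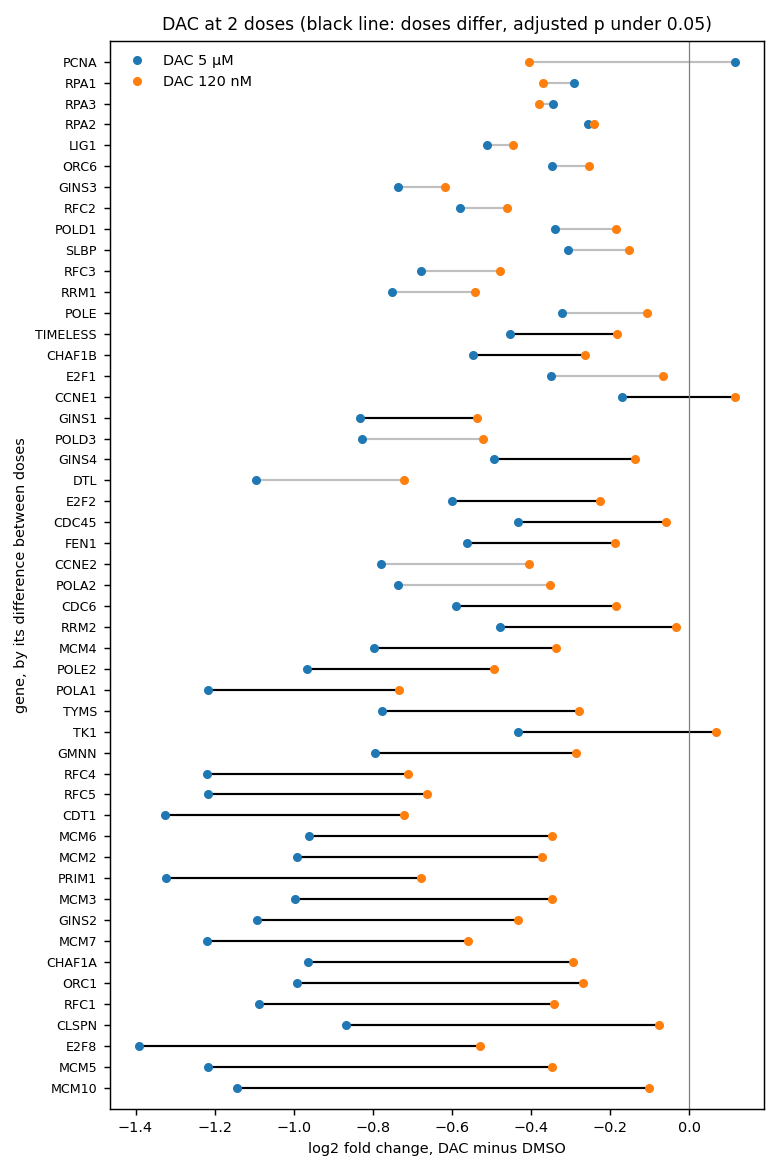
Log2 fold change of each of the 50 genes against DMSO (horizontal axis) at DAC 5 µM (blue) and 120 nM (orange), with genes ordered by the difference between doses. A black line marks the 32 genes whose doses differed at an adjusted p under 0.05. PCNA, RPA1 and RPA3 are the genes where the blue point lies right of the orange one.

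Compared directly, 32 genes were lower at 5 µM than at 120 nM and 0 were higher (5.94% and 8.73% of all genes), with a median difference of -0.38. The largest was MCM10, at 8.81 and 8.95 with 5 µM against 9.86 and 9.98 with 120 nM (-1.04 ± 0.14 SE, adjusted p = 2.9e-05). MCM5 followed, at 9.31 and 9.29 against 10.19 and 10.15 with 120 nM (-0.87 ± 0.08, adjusted p = 7.9e-07), then E2F8 (-0.86, adjusted p = 0.0073) and CLSPN (-0.79, adjusted p = 0.00010). In all 4 genes the arrays of both doses did not overlap. The call of E2F8 was lost without 5 µM replicate 1 (adjusted p = 0.066) or without 120 nM replicate 2 (0.087). Without 5 µM replicate 1 the count of lower genes was 22.

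The calls between doses fell as follows by role. Of the licensing genes 10 of 11 were lower at 5 µM than at 120 nM (median -0.62), of helicase activation 5 of 6 (-0.36), of polymerase and primase 3 of 7 (-0.38) and of clamp and loader 3 of 6 (-0.36). Of nucleotide supply it was 3 of 4 (-0.47), of G1/S control 3 of 5 (-0.37) and of the chromatin and checkpoint group 4 of 6 (-0.33). Among RPA and lagging strand genes it was 1 of 5, FEN1, with a median of -0.02. RPA2 had 10.34 and 10.36 at 5 µM, against 10.30 and 10.43 at 120 nM, so its decrease against DMSO was already there at the lower dose (-0.26 at 5 µM and -0.24 at 120 nM). RPA1 and RPA3 had differences against DMSO of -0.29 and -0.34 at 5 µM, and of -0.37 and -0.38 at 120 nM. PCNA differed by 0.52 between doses without a call (adjusted p = 0.090). Roles were not tested against each other.

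G669071 and G668684 also lowered most of these genes. Each comparison uses the same 4 DMSO arrays as DAC, so the 3 are not independent, and doses differ or, for G669071, are unsettled, so no test was made between these compounds. At the higher dose of G669071, 46 genes fell and 0 rose (13.7% and 15.8% of all genes), with a median of -0.67, against -0.03 over all genes. At G668684 7 µM, 48 fell and 0 rose (14.7% and 17.5%), with a median of -0.70, against -0.04. By at least 1 log2, 8 genes were lower with G669071 (0.476% of all genes) and 15 with G668684 (0.626%). The genes not called with the higher dose of G669071 were E2F1 (-0.33, adjusted p = 0.050), POLE (-0.18), SLBP (-0.16) and PCNA (-0.12). With G668684 7 µM they were SLBP (-0.26, adjusted p = 0.088) and PCNA (-0.01).

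PRIM1 had 10.14 and 10.33 with the higher dose of G669071 and 10.15 and 10.11 with G668684 7 µM, against 11.43 to 11.62 in DMSO (-1.30 and -1.4). CDT1 had 9.51 and 9.59 with G669071 and 9.67 and 9.71 with G668684, against 10.72 to 11.14 in DMSO (-1.39 and -1.25). All 8 arrays lay more than 1 log2 below the lowest DMSO array of their gene. E2F8 differed by -1.17 with G669071 and -1.27 with G668684, DTL by -1.20 and -1.11, POLA1 by -1.10 and -1.26, RFC4 by -1.12 and -1.17, RFC5 by -1.08 and -1.17, and MCM5 by -1.0 and -1.21. MCM10 differed by -0.80 with G669071, where it had 9.15 and 9.30, and by -1.14 with G668684, where its arrays were 8.62 and 9.14.

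At the lower dose of G669071, 25 genes fell and 0 rose (6.91% and 8.68% of all genes), with a median of -0.27. RFC4 had 10.63 and 10.56 (-0.68), CDT1 10.30 and 10.26 (-0.65), RFC3 9.80 and 9.76 (-0.58), POLA1 9.03 and 9.03 (-0.55) and PRIM1 11.08 and 11.02 (-0.48), all below every DMSO array. By role the calls were 6 of 11 licensing genes, 3 of 6 of helicase activation, 4 of 7 polymerase genes, 4 of 6 clamp and loader genes, 5 of 5 RPA and lagging strand genes, 2 of 4 of nucleotide supply, 1 of 5 of G1/S control and 0 of 6 of the chromatin and checkpoint group. Without replicate 1 of this dose 15 genes fell. At G668684 150 nM, 34 fell and 0 rose (10.4% and 10.7%), with a median of -0.32, led by POLA1 (8.74 and 8.82, -0.80), CDT1 (10.11 and 10.22, -0.77), DTL (9.31 and 9.45, -0.70), RFC4 (10.62 and 10.54, -0.69) and RFC5 (10.95 and 11.08, -0.68).

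The higher dose of G669071 was below its lower dose for 28 genes and above it for 0 (3.71% and 5.65% of all genes), with a median of -0.40. PRIM1 led (-0.82 ± 0.10 SE, adjusted p = 5.7e-07), followed by DTL (-0.78, adjusted p = 0.0044, lost at 0.053 without replicate 2 of the lower dose), CDT1 (-0.73) and RFC5 (-0.71). G668684 at 7 µM was below 150 nM for 31 genes and above it for 0 (3.77% and 7.78%), with a median of -0.38, led by MCM10 (-0.86), PRIM1 (-0.83), MCM5 (-0.81) and ORC1 (-0.79). Without 7 µM replicate 1 the count was 20. RPA and lagging strand genes again had 1 of 5 called in each, FEN1, by -0.43 and -0.42. Nucleotide supply genes had 4 of 4 called in each.

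Over the 6 groups of DAC, G669071 and G668684, 25 genes were lower than DMSO in every group, among them CDT1, PRIM1, POLA1, MCM5, MCM7, RFC4 and the 3 RPA genes. In 12 genes a decrease was called at all 3 higher doses and at no lower dose, namely CCNE1, CCNE2, CDC45, CDC6, CLSPN, GINS4, GMNN, MCM10, ORC6, POLD1, RRM2 and TK1. TK1 had differences of -0.43, -0.25 and -0.43 at the higher doses of DAC, G669071 and G668684, and of 0.07, 0.15 and 0.14 at their lower doses. RRM2 had -0.48, -0.44 and -0.49 at the higher doses, and -0.03, 0.01 and -0.02 at the lower ones. A missing call at a lower dose does not show that a gene did not differ there, and these counts share the DMSO arrays. Neither count was made over all genes. The share of all genes lower in every group cannot exceed the 6.91% lowered at the lower dose of G669071. The share lower at all 3 higher doses cannot exceed the 13.7% lowered at the higher dose of G669071.

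Aza at 1500 nM left most of these genes uncalled. It lowered 7 and raised 4 of the 50 (9.18% and 8.13% of all genes, shares not far from those of the members), with a median of -0.03, against 0.03 over all genes. The cyclin gene CCNE1 had 10.28 and 10.27 after Aza 1500 nM, against 9.79, 9.77, 9.66 and 9.70 in DMSO. Both Aza arrays were above every DMSO array. The difference was 0.55 ± 0.06 (SE, adjusted p = 1.8e-06), and its probe sets ranged from 0.04 to 0.55. RRM2 (0.24, adjusted p = 0.00046), CDC45 (0.29, adjusted p = 0.010) and GINS4 (0.26, adjusted p = 0.026) also rose. CDC45 and GINS4 lost their calls without Aza 1500 nM replicate 1 (adjusted p = 0.15 and 0.33), GINS4 also without DMSO replicate 4 (0.069) or against the first DMSO pair (0.24, adjusted p = 0.064), and RRM2 lost its call on probe sets that bind a single transcript (adjusted p = 0.58).

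The genes that fell with Aza 1500 nM were RFC1, POLA1, PRIM1, MCM6, LIG1, GINS1 and RPA3. RFC1, the large loader subunit, had 9.11 and 8.74, against 9.62, 9.47, 9.75 and 9.49 in DMSO (-0.66 ± 0.16 SE, adjusted p = 0.0068). Its probe sets disagreed, from -0.66 to 0.11, and the value was 0.11 on probe sets that bind a single transcript. PRIM1 had 11.21 and 11.18, against 11.43 to 11.62 in DMSO (-0.34, adjusted p = 0.00069), and POLA1 had 9.25 and 9.14, against 9.45 to 9.70 in DMSO (-0.38, adjusted p = 0.0021). For these 3 genes the Aza arrays were below all DMSO arrays. MCM6, LIG1, GINS1 and RPA3 differed by -0.30, -0.29, -0.26 and -0.19. Without Aza 1500 nM replicate 2 only 1 gene was lowered, and RFC1, POLA1, MCM6 and LIG1 were among those that lost their calls (adjusted p = 0.19, 0.062, 0.12 and 0.25). LIG1 also lost its call without DMSO replicate 3 (adjusted p = 0.051), and MCM6 against the first DMSO pair (-0.165, adjusted p = 0.074). The count of lowered genes was 4 without DMSO replicate 3, 4 with the first DMSO pair as the only controls, and 17 with the second.

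At 150 nM Aza, limma called 0 genes lower and 0 higher (0.46% and 1.03% of all genes), while 7 had an unadjusted p under 0.05. The median was -0.02. Between Aza doses, CCNE1 was higher at 1500 nM, 10.28 and 10.27 against 9.88 and 9.84 at 150 nM (0.42, adjusted p = 0.00067), and so was RRM2, 13.59 and 13.64 against 13.42 and 13.39 (0.21, adjusted p = 0.013). No gene was lower (2.41% of all genes were higher and 3.38% lower). RRM2 lost its call without Aza 1500 nM replicate 2 (adjusted p = 0.16) or without either array of Aza 150 nM (0.071 and 0.13). It was also lost on probe sets that bind a single transcript (0.065, adjusted p = 0.89), on averaged probe sets (0.14, adjusted p = 0.38) and without the intensity trend (adjusted p = 0.081).

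G669043 at 1500 nM lowered 6 genes and raised 1 (3.25% and 5.88% of all genes), with a median of -0.06, against -0.01 over all genes. PRIM1 had 11.04 and 11.04, against 11.43 to 11.62 in DMSO (-0.49 ± 0.06 SE, adjusted p = 2.7e-05). RFC4 had 10.81 and 10.83, against 11.07 to 11.47 in DMSO (-0.45, adjusted p = 0.0019). GINS1 had 10.67 and 10.66, against 10.92 to 11.23 in DMSO (-0.40, adjusted p = 0.0026). In all 3 cases the G669043 arrays lay below every DMSO array, as the choice of these genes required. POLD3 (-0.34), POLE2 (-0.27) and POLA1 (-0.26) were the other genes that fell, and each lost its call without either of the G669043 arrays (adjusted p = 0.095 to 0.30). POLA1 also lost it without DMSO replicate 3 (adjusted p = 0.10) or replicate 4 (0.11), and POLD3 without DMSO replicate 4 (0.050). Against the first DMSO pair POLA1 (-0.14, adjusted p = 0.20), POLD3 (-0.26, 0.074) and POLE2 (-0.18, 0.074) were not called. CCNE1 was the gene that rose, 9.89 and 9.96 against 9.66 to 9.79 in DMSO (0.20, adjusted p = 0.038). It lost this call without either G669043 array (0.099 and 0.38) and without DMSO replicate 3 or 4 (0.080 and 0.072). Against the first DMSO pair it was 0.145 (adjusted p = 0.11), and averaging its probe sets turned the value to -0.01. Beta-actin 3' minus 5' was 0.07 and 0.34 on the G669043 1500 nM arrays, and with it as a covariate 12 genes were lowered.

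At 150 nM G669043, limma called 0 genes lower and 0 higher (0.161% and 0.709% of all genes), with 15 at an unadjusted p under 0.05. The values leaned upward: 45 of the 50 were above zero with a median of 0.12, against 0.01 over all genes. For 14 genes both arrays lay above every DMSO array, as for 12.2% of all genes. MCM6 had 12.46 and 12.47, against 12.12, 12.09, 12.43 and 12.33 in DMSO, and PRIM1 had 11.57 and 11.52, against 11.43 to 11.62 in DMSO, so MCM6 was just above the DMSO arrays and PRIM1 among them. The DMSO pairs differed here: with the first pair as the only controls 20 genes were called higher (median 0.17), and with the second pair 0 were (median 0.08). The share of all genes called with either pair is not given, so these counts describe the members only. The median was 0.01 after the arrays were set to the same quantiles again. G669043 at 1500 nM was lower than at 150 nM for 10 genes and higher for 0 (2.18% and 1.69%), with a median of -0.18. They were RFC3 (-0.51), PRIM1 (-0.50), RFC4 (-0.49), GINS1 (-0.44), MCM3, MCM6, RFC5, POLD3, POLE2 and CHAF1A. With beta-actin 3' minus 5' as a covariate 22 genes were called between these doses. Leaving out any 1 of the 4 arrays left 1 to 3 calls (1 without 1500 nM replicate 1). RFC3, RFC4 and GINS1 each lost their call when any of these arrays was left out (adjusted p = 0.055 to 0.25).

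Aza and G669043 are the only pair of compounds given at the same 2 doses, and 2 comparisons were made between them. G668684 was also given at 150 nM, and no test was made between it and either of them. At 1500 nM, G669043 minus Aza gave 1 gene lower and 0 higher (0.659% and 1.47% of all genes), with 7 at an unadjusted p under 0.05 and a median of -0.03. That gene was CCNE1, with 9.89 and 9.96 in G669043 cells, against 10.28 and 10.27 in Aza cells (-0.35 ± 0.07 SE, 95% interval -0.49 to -0.21, adjusted p = 0.0086). The arrays did not overlap, but the call was lost when any 1 of the 4 was left out (adjusted p = 0.056 to 0.095). At 150 nM limma called 0 genes lower and 0 higher (0.0554% and 0.0111%), with 13 at an unadjusted p under 0.05. There 45 of the 50 were above zero (median 0.14), with no median or share of all genes given beside these values. For 36 both G669043 arrays lay above both Aza arrays, against 30.4% of all genes. The median was smaller after the arrays were set to the same quantiles again. PRIM1 had 11.57 and 11.52 with G669043, against 11.32 and 11.31 with Aza, and CDT1 had 11.02 and 11.31, against 10.74 and 10.76. A p above the threshold does not show that the compounds act alike.

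**Figure D4:**
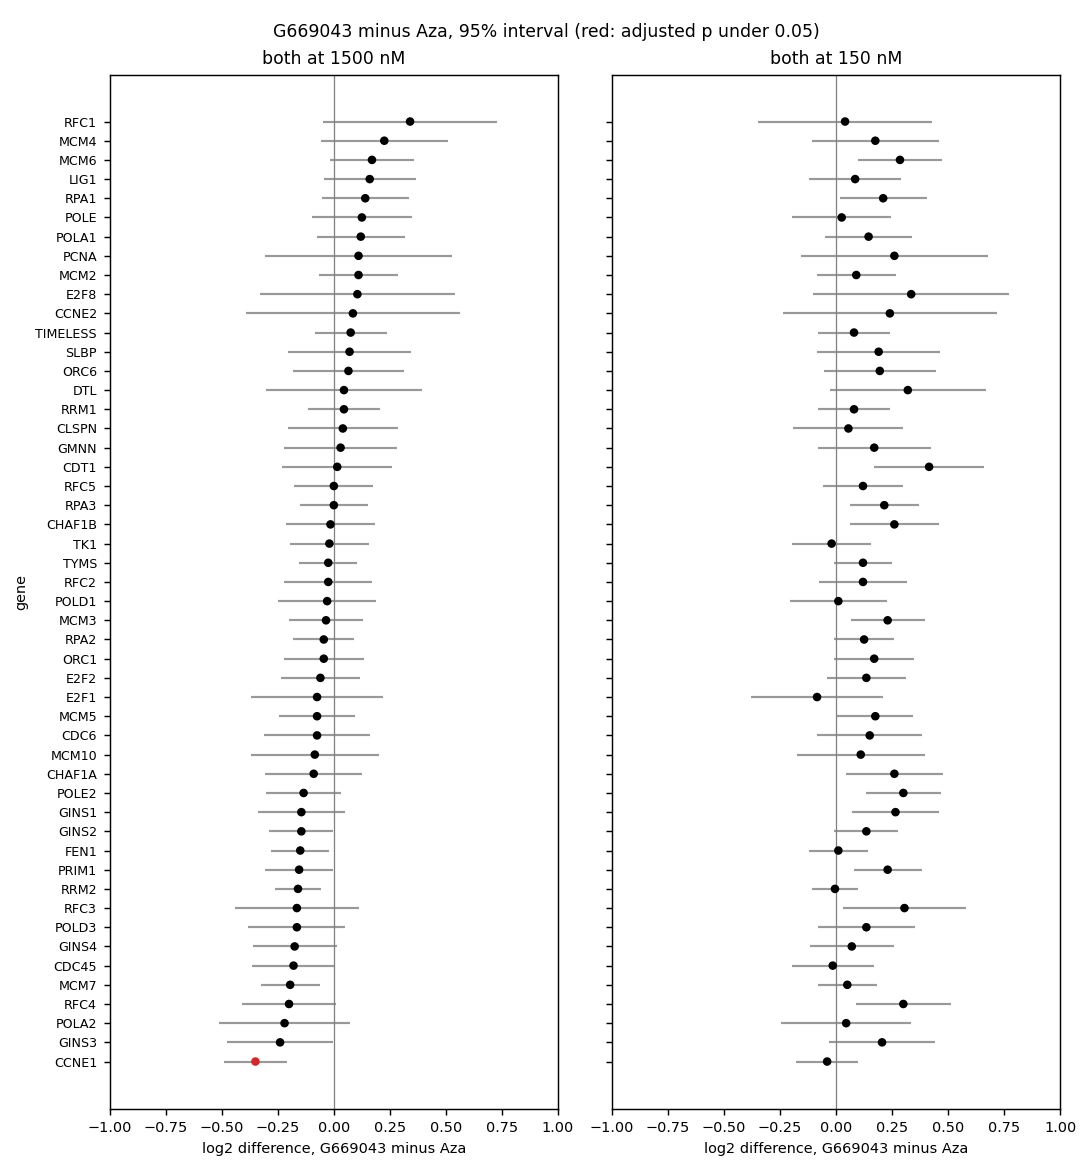
Log2 difference, G669043 minus Aza (horizontal axis), of each of the 50 genes (vertical axis) with both compounds at 1500 nM (left) and at 150 nM (right). Points are estimates from 2 arrays each, bars are 95% intervals, and red marks an adjusted p under 0.05. CCNE1 at 1500 nM is the only red point, and at 150 nM 45 points lie right of zero.

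Other lists give the setting. Of 53 replication genes outside the 50, 32 fell and 5 rose at DAC 5 µM with a median of -0.38 (14.2% of all genes fell and 18% rose), and 6 fell and 4 rose at Aza 1500 nM, near the 9.18% and 8.13% of all genes. CDCA7 (-1.60), SKP2 (-1.47) and HELLS (-1.32) fell most with CASP8AP2 (-1.48), where SKP2 is the receptor of a ubiquitin ligase active at the G1/S border and HELLS a chromatin remodeler needed for DNA methylation. POLE4, a small subunit of polymerase epsilon, rose by 1.17 at the higher dose of G669071, and POLD4, a small subunit of polymerase delta, by 0.76 at DAC 120 nM. Of 40 genes of G2 and mitosis, 35 fell and 0 rose at DAC 5 µM (median -0.66), led by CENPF (-2.02) and KIF15 (-1.97), and 9 fell at DAC 120 nM (median -0.14), where 9.9% of all genes fell. At Aza 1500 nM 10 of these mitotic genes fell and 1 rose (9.18% and 8.13% of all genes), with a median of -0.20.

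Targets of p53, a list that shares RRM2B with the other replication genes, ran the other way in the same cells. Of 22 measured, 18 rose and 0 fell at DAC 5 µM (median 0.86), 12 at DAC 120 nM (0.39), 15 at Aza 1500 nM (0.51) and 14 at G669043 1500 nM (0.43). The shares of all genes that rose in these groups were 18%, 12.5%, 8.13% and 5.88%, in the same order. CDKN1A, which encodes the p21 inhibitor of cyclin-dependent kinases, had a mean of 12.11 at DAC 5 µM, against 10.17 in DMSO. The 7 other p53 targets at Aza 1500 nM and the 8 others at G669043 1500 nM were not called. In these groups the medians of the 50 replication genes were -0.03 and -0.06. Whether the lists differ from each other, or bear on each other, was not tested.

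**Figure D5:**
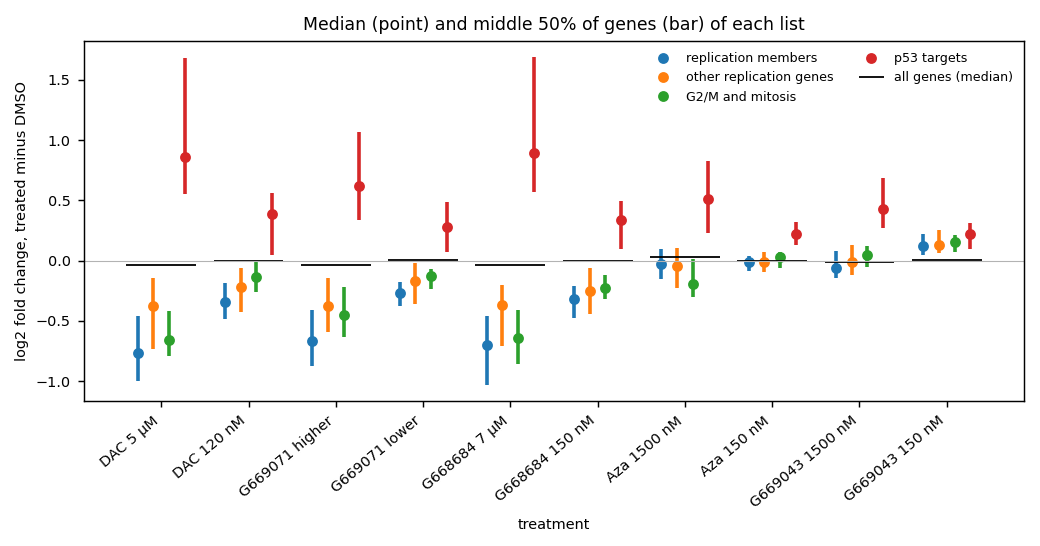
Median log2 fold change against DMSO (points, vertical axis; bars span the middle 50% of a list's genes) of the 50 replication genes, other replication genes, G2 and mitosis genes and p53 targets by treatment (horizontal axis), with black lines for the median of all genes. The 50 genes sit at -0.77, -0.67 and -0.70 at the higher doses of DAC, G669071 and G668684, and between -0.06 and 0.12 with Aza and G669043, where p53 targets sit between 0.22 and 0.51.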

How the data were processed

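RNA of 24 HCT116 samples, placed in 11 groups by the compound and dose in their titles, was hybridised to Affymetrix HG-U133 Plus 2.0 arrays. Per the submitters' processing notes, the authors used Affymetrix Expression Console 1.1 and RMA, which subtracts background, equalises quantiles and summarises probes. What they deposited is a linear intensity for each of 54675 probe sets, from which log2 was computed. Detection calls were not used here, so signal over background is unknown, and the number of arrays limits the precision (median 95% interval 0.21 either side against DMSO, 0.24 between treated groups). RMA equalises quantiles before it summarises probes, which hides any change in total RNA. The summarised values still differed between arrays, with medians from 6.46 to 6.58. Sources used here do not give the authors' genome build.

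The array's gene table gave 1 symbol for 41091 probe sets, several for 1801 and none for 11721, and 62 more were controls. Probe sets reaching log2 of 5 on at least 2 arrays were kept, and each gene was read from its probe set with the highest mean. The 50 genes had 98 probe sets, of which 97 were kept, and 22 genes were read from a probe set whose name says that it can bind several transcripts.

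All arrays entered 1 linear model, with 1 coefficient for each group, in limma 3.58.1 (R 4.3.3, lmFit, eBayes with an intensity trend, 13 residual and 6.14 prior degrees of freedom) in 17 contrasts: 10 against DMSO, 5 between doses and 2 of G669043 minus Aza. Tests were 2-sided, with Benjamini-Hochberg adjustment over 18055 genes at 0.05. The fit was tested on simulated data with independent noise on every array. Such data hold no DMSO pairs, so that test cannot speak to how the pairs affect the calls. Errors are SEs from limma. Tables and figures used Python 3.11.15, pandas 2.3.3, numpy 2.4.6 and matplotlib 3.10.9.

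The members and lists were chosen with earlier results of these data known. Members named in full are the called ones with the largest changes in each contrast (up to 8 at a higher and 5 at a lower dose against DMSO, 4 between doses) and PCNA. Against DMSO they were taken only if both treated arrays lay beyond every DMSO array. Members called against the direction of the median were named without this condition. Other members are named by role. Replicate numbers of the treated groups were checked for shared deviations by correlation only, without a test, and the main model held no replicate block. Alternatives tried were the filter, the choice of probe set, normalization, the intensity trend, robust eBayes, 2-group fits, either DMSO pair alone, beta-actin 3' minus 5' as a covariate, a replicate block and leaving out each array.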

Additional observations from a re-analysis of the deposited data

Results flagged for a closer look

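CDC45 in DMSO replicate 1 lay at 8.86, apart from the other 3 DMSO arrays at 8.77 to 8.78. It was the only one flagged of 50 genes tested in this way in the group of 4 DMSO arrays. Chance alone flags about 1 in 20 genes, so 1 flag among 50 can arise by chance.

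CCNE1 was lower with G669043 than with Aza at 1500 nM, by a log2 difference of -0.35 (limma adjusted p = 0.0086, 2 arrays each, arrays not overlapping). Leaving out any array gave differences of -0.39 to -0.32, with the call lost each time, as given above.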

How the results depend on the processing

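The DMSO pairs, the probe set rule and the fit moved values, while no median of DAC, G669071 or G668684 against DMSO changed direction. Against DMSO replicates 1 and 2 the medians were -0.64 for DAC 5 µM, -0.19 for the lower dose of G669071 and 0.0025 for G669043 1500 nM (from -0.06), Aza 1500 nM lowered 4 genes, G669043 1500 nM raised 4, and G669043 150 nM lowered 1 and raised 20. Against replicates 3 and 4 the medians were -0.87 (DAC 5 µM), -0.79 and -0.35 (G669071, higher and lower), -0.86 and -0.41 (G668684 7 µM and 150 nM), -0.13 (Aza 1500 nM) and -0.080 (Aza 150 nM), and PCNA at DAC 5 µM turned to -0.15. There DAC 120 nM raised 1 gene, Aza 1500 nM lowered 17, Aza 150 nM lowered 8 and raised 1, and G669043 1500 nM lowered 14. Setting arrays to the same quantiles again gave 3 lower at Aza 150 nM, 11 lower and 0 higher at G669043 1500 nM, and medians of 0.011 (G669043 150 nM), -0.44 (G668684 doses), -0.093 (G669043 doses) and 0.054 (G669043 minus Aza, 150 nM). With beta-actin 3' minus 5' as a covariate G669043 lowered 12 at 1500 nM and raised 5 at 150 nM, dose calls were 4 for Aza and 22 for G669043, and medians were -0.45 (DAC doses), -0.45 (G668684 doses) and -0.12 (G669043 minus Aza, 1500 nM). Averaging a gene's probe sets gave medians of -0.63 and -0.28 (DAC 5 µM and 120 nM), -0.53 (G669071 higher) and -0.60 (G668684 7 µM), 1 higher at Aza 150 nM, 0 higher at G669043 1500 nM where CCNE1 turned to -0.0075, 1 call between Aza doses and 0 for G669043 minus Aza at 1500 nM. Leaving out probe sets that bind several transcripts kept 39 genes, with medians of -0.60 and -0.28 (DAC), -0.51 (G669071 higher), -0.60 (G668684 7 µM) and -0.30 (DAC doses), 30 lower for G669071 higher, dose calls of 20 (DAC) and 1 (Aza), and RFC1 at 0.11 with Aza 1500 nM. Fewer genes were tested there. Without the intensity trend 1 gene was called between Aza doses.

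Fits of the compared groups alone have fewer degrees of freedom. They lowered 17 (DAC 120 nM), 14 (G669071 lower), 20 (G668684 150 nM), 2 (Aza 1500 nM, 2 raised) and 1 (G669043 1500 nM, 0 raised), called 18 and 7 between DAC and Aza doses, and 2 and 21 for G669043 minus Aza at 1500 and 150 nM. Over 45 pairs of treated groups the correlation of same-numbered deviations was -0.39 to 0.61 (median 0.016), over 0.1 in 17. Whether replicate numbers pair the samples in some of the groups was not tested. With the replicate block, in which DMSO 3 and 4 have numbers no treated array has, medians were -0.64 (DAC 5 µM), -0.19 (G669071 lower) and 0.0025 (G669043 1500 nM). The block gave 1 raised at DAC 5 µM (PCNA, 0.38, adjusted p = 0.050), 4 lowered at Aza 1500 nM, 5 raised at G669043 1500 nM, 1 lowered and 20 raised at 150 nM, 16 calls between G669043 doses, and 2 and 4 for G669043 minus Aza.

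Leaving out each array gave medians of -0.38 to -0.28 (DAC 120 nM), -0.45 to -0.39 (DAC doses) and -0.77 to -0.65 (G668684 7 µM). Lowered genes numbered 1 to 10 (Aza 1500 nM), 0 to 1 (Aza 150 nM), 3 to 9 (G669043 1500 nM) and 15 to 28 (G669071 lower). Raised genes numbered 2 to 5 (Aza 1500 nM), 0 to 1 (Aza 150 nM, G668684 150 nM, G669043 1500 nM and G669071 lower) and 0 to 2 (G669043 150 nM). Dose calls were 1 to 2 (Aza), 20 to 28 (G668684) and 1 to 3 (G669043), and calls for G669043 minus Aza at 1500 nM were 0 to 0. The named genes gave 75 results under 1336 alternatives: 1251 kept direction and call, 81 lost the call, 1 gained it and 3 reversed. Beyond these constructions the causes were not tested. Low array numbers and unknown detection limit small differences.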
